A study of Brassica carinata with 12 samples.

Results

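Haploid and tetraploid anthers of synthetic Brassica carinata were compared at the stage labelled mitosis (gametogenesis), which gave 6 of the 12 libraries of the study: 3 haploid (genotype BC) and 3 tetraploid (genotype BBCC). In both forms B. oleracea var. alboglabra was the seed parent and B. nigra the pollen parent. The tetraploid had in addition been through ovule culture and colchicine, which doubles chromosome sets, and the haploid has no label of either step. The sample labels name the tissue as anther (pollen), while the protocol speaks of floral buds, and no label says whether the libraries of a form came from separate plants. The p-values therefore measure spread among libraries only, and it may be technical. The other 6 libraries came from young anthers at meiosis (sporogenesis). They entered the filter on low counts, the scaling and the estimate of the spread, and gave a level against which genes were sorted.

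B. carinata is an allotetraploid mustard that joins the B genome of black mustard with the C genome of cabbage. In an anther, meiosis of the pollen mother cells gives microspores, and each microspore later divides by an asymmetric mitosis into a large vegetative cell and a small generative cell. A wall layer, the tapetum, feeds the microspores and breaks down as pollen ripens, and many pollen genes are switched on only after meiosis. In a plant with a single B and a single C set the chromosomes have no homologous partner to pair with at meiosis.

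Read counts per gene were deposited for 97149 genes, and the 6 mitosis libraries held between 15913918 and 16594913 counts. Libraries of the same form had Pearson's r of 0.988 to 0.989 across 28800 genes on the log2 CPM scale, and libraries of different forms 0.873 to 0.876. The 51860 genes with enough counts were tested together in edgeR's quasi-likelihood test, and a gene was called at a Benjamini-Hochberg adjusted p under 0.05. Levels are CPM (the gene's counts relative to the TMM-scaled library size) or, where levels of different genes or chromosomes are compared, the deposited FPKM, which is per length. TMM scaling centres the bulk of genes, so each fold change is relative to the other genes, and a change shared by all of them would not be seen. Gene IDs came without gene names, so only 4 IDs are named (2 higher, 2 lower), the markers of anther cell types could not be looked up, and the label of the tissue was not checked.

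Chromosome C03 stood apart from every other chromosome. Of its 2554 tested genes, 1688 (66.1%) were called higher in haploid anthers and 166 (6.50%) lower, while over all tested genes 47.7% were called, 23.3% higher and 24.4% lower. The median C03 gene was 1.86-fold higher (log2 fold change 0.90, interquartile range 0.43 to 1.28), and the median over all tested genes was 0.02. From the deposited FPKM the C03 median was 0.59 on the log2(FPKM + 1) scale, which understates the change of low genes, and 0.82 on the log2(FPKM + 0.1) scale. The 16 other chromosomes had medians between -0.04 and 0.04, and on each of them between 19.6% and 22.9% of tested genes were called higher. Libraries of the forms did not overlap, with the haploid above, for 68.2% of C03 genes against 26.9% of all genes.

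Per length, the level of C03 genes was in the range of other chromosomes in the haploid and below it in the tetraploid. The median FPKM over tested C03 genes was 4.99, 5.03 and 5.02 in the haploid libraries and 2.90, 2.93 and 2.86 in the tetraploid libraries. All 3 haploid values lay above all 3 tetraploid values. Other chromosomes had medians of 4.23 to 5.16 FPKM in the haploid and 4.52 to 5.60 in the tetraploid. The tetraploid C03 value was thus below those of all 16 others. Set against the C genes outside C03, the C03 median stood at a ratio of 1.02 ± 0.00369 (SD, n = 3) in haploid and 0.551 ± 0.00628 in tetraploid libraries (exact two-sided permutation p = 0.1, the smallest that 3 against 3 libraries can give, and 0.112 after adjustment over 28 per-library measures). The meiosis libraries, which share no reads with these, gave ratios of 0.988 ± 0.0242 and 0.537 ± 0.0139. Fewer C03 genes passed the filter on low counts, 45.3% of those annotated against 46.6% to 57.1% on the other chromosomes.

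**Figure D1:**
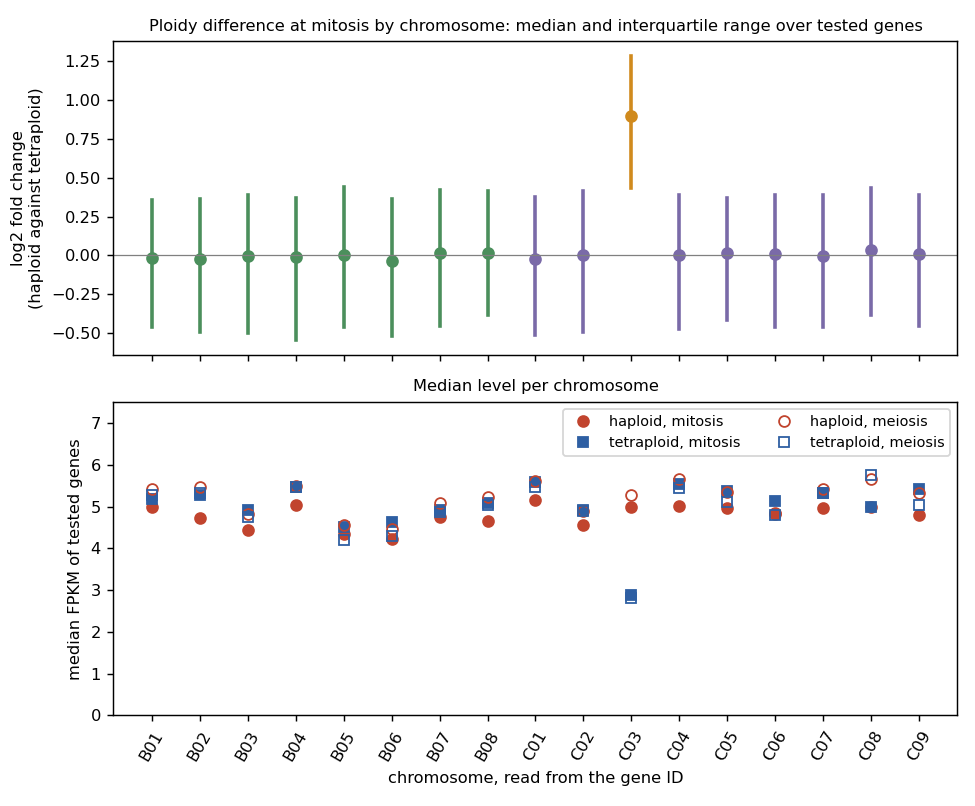
Upper panel: log2 fold change of haploid against tetraploid at mitosis for each of the 17 chromosomes, as the median (point) and interquartile range (line) over tested genes, with B chromosomes in green, C chromosomes in purple and C03 in orange. Lower panel: median FPKM of the same genes in both forms at both stages, where the haploid C03 value (4.98 at mitosis) lies among the other chromosomes and the tetraploid value (2.89) lies below them.

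The share of all counts that came from C03 showed the same split. It was 5.60%, 5.63% and 5.67% in the haploid libraries and 2.88%, 2.89% and 2.88% in the tetraploid libraries, a ratio of 1.95 (exact two-sided permutation p = 0.1, adjusted p = 0.112). More C03 genes reached 1 CPM in the haploid, 2096 ± 7.55 (SD, n = 3) against 1924 ± 14.0, although over the whole table fewer genes did so in the haploid, 41355 ± 235 against 43061 ± 226 (both on total counts, exact two-sided permutation p = 0.1, adjusted p = 0.112). Groups did not overlap for either measure.

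**Figure D2:**
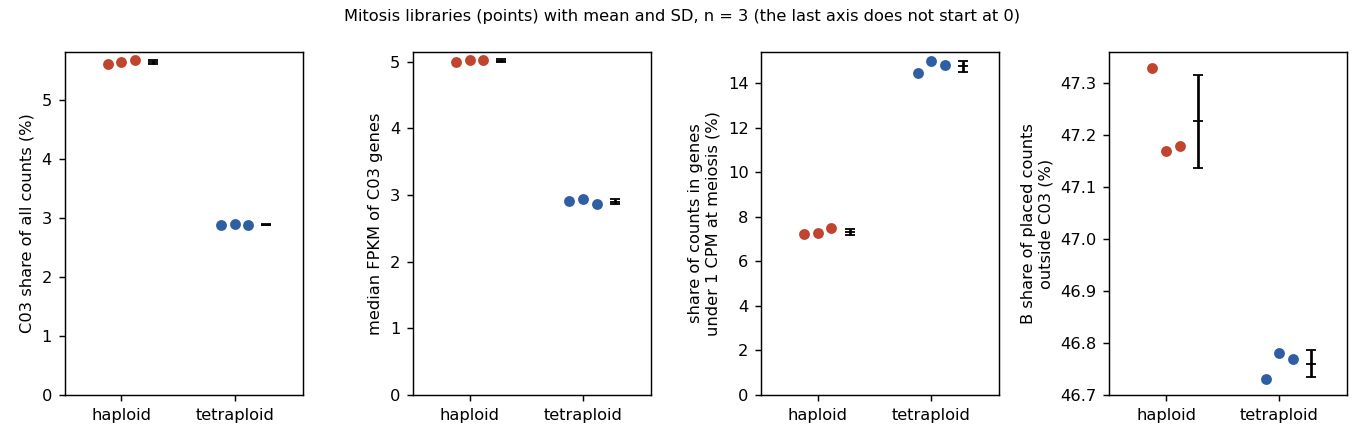
Each point is 1 mitosis library, with the mean and SD (n = 3) beside the points. From left to right the panels show the C03 share of counts, the median FPKM of C03 genes, the share of counts in genes under 1 CPM at meiosis, and the B share of placed counts outside C03 on an axis that does not start at 0. The 3 haploid points lie apart from the 3 tetraploid points in all 4 panels, and in the last panel the means differ by 0.470 percentage points.

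The shift of C03 was broad rather than carried by a few genes. Among C03 genes with at least 4 CPM on average, 902 of 1360 (66.3%) had a log2 fold change between 0.5 and 1.5, against 13.6% of B genes and 13.9% of C genes outside C03 at that level. The spread around the median was alike, with an interquartile range of 0.65 on C03, 0.67 for B and 0.67 for C outside C03. In ID order, 26 consecutive runs of up to 100 tested C03 genes had medians from 0.59 to 1.1, and each full run held between 54 and 76 genes called higher. The direction held at every expression level. The C03 median was 0.90 below 1 CPM (454 genes), 0.86 at 1 to 4 CPM, 0.92 at 4 to 16 CPM, 0.90 at 16 to 64 CPM, 0.77 in the fifth class (84 genes), which runs from 64 CPM to 4 times that level, and 1.69 in the top class above it, which holds 17 genes. The share called higher rose with level from 28.9% to 90.5% in the fifth class. The share called lower stayed between 5.14% and 7.97% in the first 5 classes, and 0 of the 17 genes of the top class were called lower (edgeR). The most abundant C03 gene, ranked 13 among all genes, stood at 3819 CPM in haploid and 1701 CPM in tetraploid libraries (log2 fold change of 1.17 with SE 0.046, adjusted p = 3.76e-21 in edgeR).

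**Figure D3:**
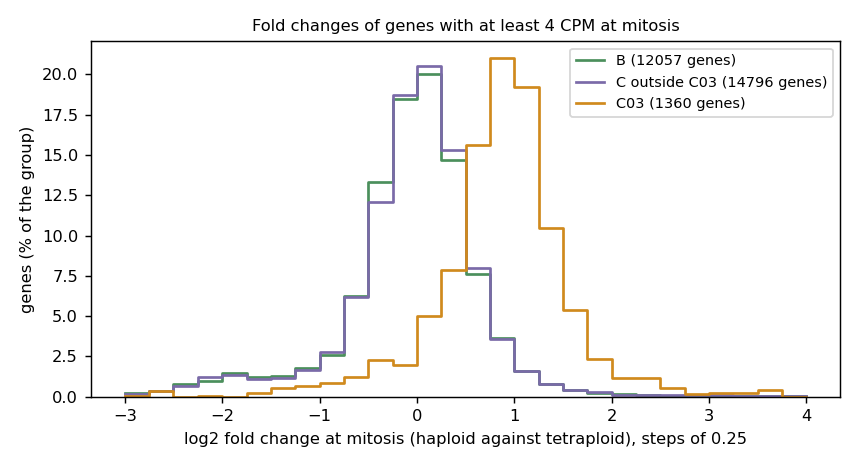
Share of genes (percent of each group) by log2 fold change of haploid against tetraploid at mitosis, in steps of 0.25, for genes with at least 4 CPM on average over the 6 mitosis libraries; values beyond the axis are not drawn. The B and C curves lie on each other around 0 with a small shoulder near -2, and the C03 curve has the same width around a median of 0.91.

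Outside C03, 10399 genes were called higher in haploid anthers and 12510 lower, 21.1% and 25.4% of the 49306 tested. Decreases prevailed among larger changes. At least 2-fold changes were called upward for 2992 genes and downward for 6105, at least 8-fold changes for 486 and 1147, and at least 16-fold changes for 267 and 648. Over all tested genes 7.70% were called at least 2-fold higher and 12% at least 2-fold lower. Over all tested genes, C03 included, the larger side among calls depended on the scaling. TMM factors taken from genes outside C03 made 51.4% of all calls higher, against 48.8% with the factors used here. Median-of-ratios size factors made it 45.1%. With C03 genes left out before the fit, 11070 genes were called higher and 11911 lower, so decreases stayed the larger side there.

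The B and C subgenomes differed little from each other in this. Among 20054 B genes 20.8% were called higher and 26.3% lower, with a median of -0.01 (interquartile range -0.48 to 0.38). Among 24866 C genes outside C03 the shares were 21.3% and 24.8% and the median 0.00 (-0.46 to 0.39). At least 2-fold decreases numbered 2580 for B and 3023 for C, and at least 2-fold increases 1245 and 1461. The 4386 unplaced genes had 20.8% called higher, 24.0% called lower and a median of -0.01.

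B genes took 47.3%, 47.2% and 47.2% of the placed counts outside C03 in the haploid libraries and 46.7%, 46.8% and 46.8% in the tetraploid libraries, a difference of 0.470 percentage points without overlap (exact two-sided permutation p = 0.1, adjusted p = 0.112). The direction depended on which of the most abundant genes were counted. Without BcaB01g02286 the haploid stood at 46.4% ± 0.0970 (SD, n = 3) and the tetraploid at 46.5% ± 0.0279, and the libraries then overlapped (difference -0.116 percentage points, exact two-sided permutation p = 0.2). With BcaC09g48506 left out as well, the difference was 0.270 percentage points and the libraries did not overlap (exact two-sided permutation p = 0.1). Of the 16 chromosomes, 7 took a larger share of these counts in all haploid libraries than in any tetraploid one, 6 a smaller share, and 3 overlapped. The largest gain was on B01 (9.82% ± 0.0352 against 9.21% ± 0.0251), and without BcaB01g02286 its difference was -0.388 percentage points, at 8.38% ± 0.0141 against 8.77% ± 0.0214. C09 differed by 0.607 percentage points, and by -0.148 with overlapping libraries once BcaC09g48506 was left out. The largest loss was on B06, at 3.96% ± 0.0103 against 4.46% ± 0.0136.

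Expression level changed how often genes outside C03 were called and, at the top, in which direction. In B the share called rose from 27.3% below 1 CPM to 95.1% in the top class, and in C outside C03 from 25.8% to 91.9%. Higher counts give the test more precision, so the share called is not a measure of how large the changes were. Calls lower in the haploid were the larger share in 5 of the 6 classes of B genes and in 4 of the 6 classes of C genes, and the gap was widest in the fifth class (64 CPM to 4 times that), where 34.7% of 895 B genes were called higher and 48.7% lower, and 35.2% and 45.9% of 1108 C genes. Among the most abundant genes, in the top class, increases led, with 89 of 163 B genes called higher and 66 lower, and 97 and 84 of 197 C genes. At 4 to 16 CPM the C genes were near even, with 1982 higher and 1975 lower. Medians stayed close to 0 in every class, from -0.12 in the fifth class to 0.19 in the top class in B, and from -0.07 to 0.10 in the same classes in C.

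**Figure D4:**
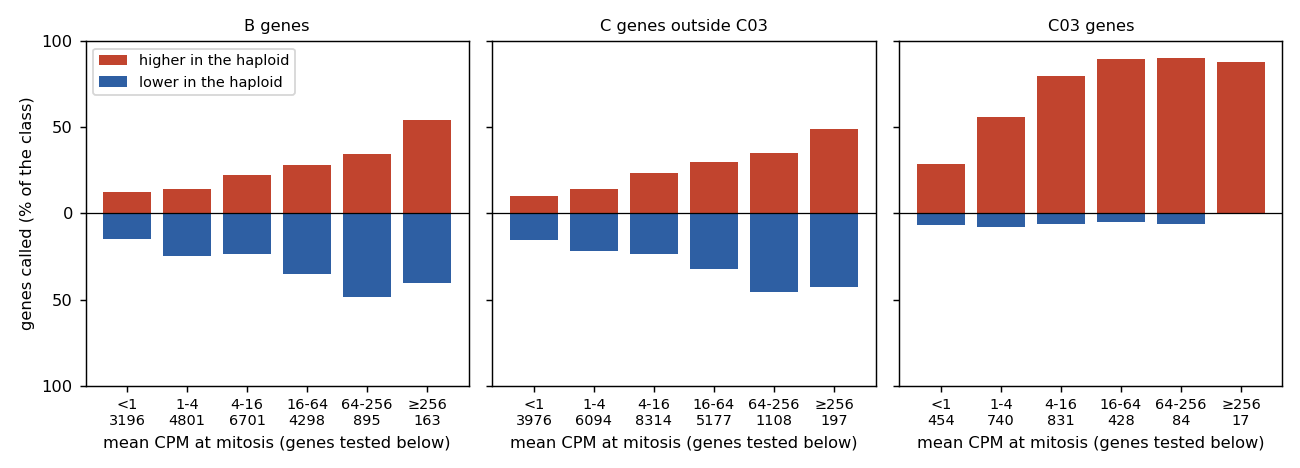
Percent of tested genes called higher (red, upward) or lower (blue, downward) in the haploid at mitosis, by class of mean CPM over the 6 mitosis libraries, with the number of tested genes under each class. B and C genes outside C03 have nearly the same pattern, with decreases leading in the fifth class and increases in the top class, while C03 genes are mostly called higher in every class from 1 CPM upward.

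Of all 411 tested genes in the top class, 55% were called higher and 38.4% lower, against 23.3% and 24.4% of all tested genes. The 100 most abundant genes at mitosis, C03 and unplaced genes included, had 60 called higher and 32 lower, with a median log2 fold change of 0.25. They are few but heavy: each library's own 100 most abundant genes took 19.7%, 20.1% and 20.1% of counts in haploid libraries and 16.1%, 16.3% and 16.2% in tetraploid ones (exact two-sided permutation p = 0.1, adjusted p = 0.112). The most abundant gene of all, on B04, stood at 16440 CPM in haploid and 10873 in tetraploid libraries (log2 fold change of 0.60 with SE 0.030, adjusted p = 7.45e-18 in edgeR).

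The 4 genes named were chosen among B and C genes outside C03 that were called, changed at least 2-fold and had libraries without overlap. Those traits therefore follow from the choice. Within that set, the rise that moved the most counts in B was that of BcaB01g02286 on B01. It stood at 14598, 15037 and 14284 CPM in the haploid libraries and at 4550, 4493 and 4612 CPM in the tetraploid libraries. Both groups were tight and far apart (log2 fold change of 1.69 with SE 0.026, adjusted p = 1.91e-32 in edgeR). This gene was still more abundant at meiosis, with 26582 ± 689 CPM (SD, n = 3) in haploid and 16404 ± 402 CPM in tetraploid libraries. Its difference between forms was not the same at both stages (interaction 0.99 with SE 0.036, adjusted p = 3.58e-21 in edgeR), a call made for 30.5% of all tested genes. In C the counterpart was BcaC09g48506 on C09, at 13852, 13936 and 13735 CPM against 6486, 6558 and 6530 CPM (log2 fold change of 1.08 with SE 0.033, adjusted p = 3.01e-24 in edgeR). As the choice required, every haploid library was above every tetraploid one. At meiosis this gene was at 111 ± 3.79 CPM in haploid and 6.76 ± 1.05 CPM in tetraploid libraries.

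By the same choice, the B gene and the C gene with the largest fall in CPM had almost no reads at meiosis. BcaB04g21268 on B04 stood at 439, 432 and 432 CPM in haploid and 2203, 2292 and 2258 CPM in tetraploid libraries (log2 fold change of -2.37 with SE 0.054, adjusted p = 6.36e-28 in edgeR). BcaC09g47954 on C09 stood at 555, 549 and 551 CPM in haploid and 2752, 2982 and 2867 CPM in tetraploid libraries (log2 fold change of -2.38 with SE 0.038, adjusted p = 2.26e-32 in edgeR). Both were clearly expressed in the haploid and lower there in all libraries. At meiosis neither reached 1 CPM in any library.

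Outside C03, genes with few reads at meiosis were more often called lower than higher. Genes with a mean under 1 CPM over the 6 meiosis libraries, which do not enter the comparison, numbered 10091 outside C03, and 3941 of them (39.1%) were called lower in the haploid at mitosis and 874 (8.66%) higher, beside 24.4% and 23.3% of all tested genes. Their median log2 fold change was -0.61, and it was 0.04 for the 39215 genes with 1 CPM or more at meiosis, of which 21.9% were called lower and 24.3% higher. Genes under this limit are called late genes for short, and no rise at mitosis was required of them. Of the 10689 late genes on all chromosomes, 4740 were also under 1 CPM at mitosis. With the meiosis libraries alone, 6461 of the late genes would not have passed the filter on low counts. They entered through mitosis libraries of 1 form or of both. A gene near the limit can enter only through the form where it is higher, so these counts are a description of the tested genes. Among late genes with at least 4 CPM at mitosis this does not arise, since 0 of them were left untested. The more abundant a late gene was at mitosis, up to the fifth class, the further it lay below the tetraploid. The median was -0.22 below 1 CPM, -0.66 at 1 to 4 CPM, -1.74 at 4 to 16 CPM, -1.92 at 16 to 64 CPM and -1.93 in the fifth class, and -1.20 for 87 genes of the top class. With at least 4 CPM, 1516 of 2049 genes were called lower and 283 higher, with a median of -1.82. Of all 6105 genes outside C03 that were at least 2-fold lower in the haploid, 3765 (61.7%) were late genes, which made up 20.5% of tested genes there. Both shares include genes below 4 CPM at mitosis, where the limit from the filter applies, so they only describe the tested genes.

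B and C did this alike. Late B genes had a median of -0.65 (1660 of 4073 called lower and 365 higher) and late C genes outside C03 a median of -0.61 (1974 of 5092 and 425). At 16 to 64 CPM the medians were -1.95 for 207 B genes and -1.92 for 194 C genes. Genes with 1 CPM or more at meiosis had medians of 0.04 in B and 0.05 in C outside C03.

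Late genes over the whole table, 10689 with C03 included, took 7.25%, 7.27% and 7.49% of all counts in the haploid mitosis libraries and 14.5%, 15.0% and 14.8% in the tetraploid ones. The haploid share was 0.497 times the tetraploid share, with no overlap (exact two-sided permutation p = 0.1, adjusted p = 0.112). Counted over the whole table with untested genes included, the shares were 7.53% ± 0.135 (SD, n = 3) and 15.03% ± 0.255, a ratio of 0.501. At meiosis the tested late genes held 0.483% ± 0.00455 of counts in haploid and 0.472% ± 0.00235 in tetraploid libraries. For the 905 tested genes without a single count in any meiosis library the share at mitosis was 0.573% in haploid and 1.91% in tetraploid libraries, a ratio of 0.299. All 905 passed the filter on low counts through the compared mitosis libraries only, some perhaps through 1 form. This ratio therefore depends in part on the choice of genes and is not a sign of a stronger difference. In bulk anthers, fewer cells of a type and less RNA per cell cannot be told apart.

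Late genes on C03 lay above late genes elsewhere and below the other C03 genes. The 598 of them had a median of 0.49, with 176 called higher and 103 lower, which is 1.1 above the median of late genes on the other chromosomes. The 1956 C03 genes with 1 CPM or more at meiosis had a median of 0.94, with 1512 called higher and 63 lower, 0.89 above their counterparts. At 4 to 16 CPM the 65 late C03 genes had a median of 0.05, with 24 called higher and 24 lower, and at 16 to 64 CPM the 27 late C03 genes had a median of 0.29, with 14 called higher and 10 lower. The offsets from late genes elsewhere were then 1.79 and 2.215, and no test of these offsets was made. Of the 166 C03 genes called lower in the haploid, 103 (62.0%) were late genes, against 31.5% of the genes called lower outside C03. Such genes were 23.4% of the tested genes on C03 and 20.5% outside it. These shares too include genes below 4 CPM at mitosis, where the filter on low counts bears on which late genes were tested.

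**Figure D5:**
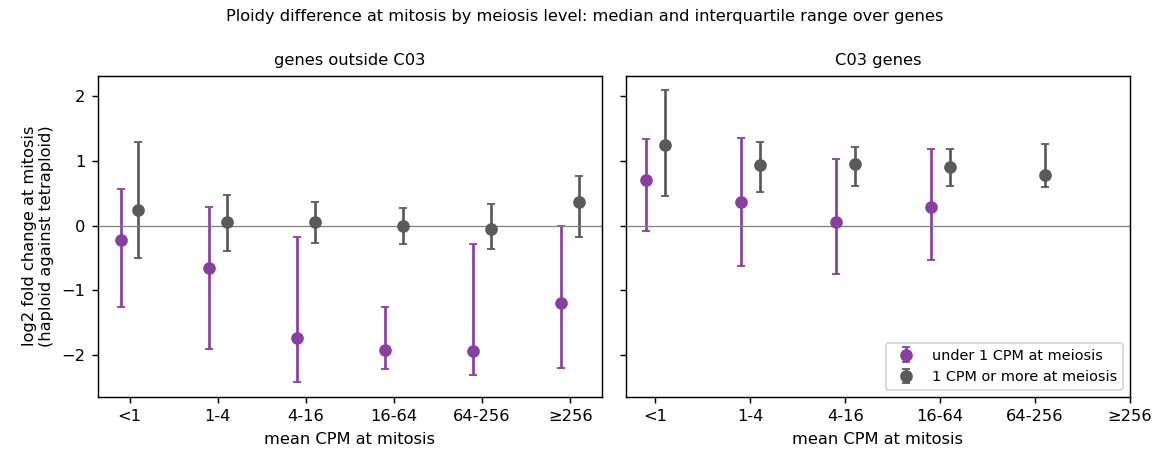
Log2 fold change of haploid against tetraploid at mitosis by class of mean CPM at mitosis, as the median (point) and interquartile range (bar) over genes, for genes under 1 CPM at meiosis (purple) and genes with 1 CPM or more at meiosis (grey); classes under 20 genes are not drawn. Outside C03 the purple medians fall from -0.22 to -1.93 over the first 5 classes and stand at -1.20 in the top class, while the grey ones stay between -0.05 and 0.36, and on C03 both colours lie above their counterparts in the left panel.

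A few genes were read in 1 form only. With at least 1 CPM in the tetraploid and 0 counts in all 3 haploid libraries there were 58 genes, 27 in B, 29 in C outside C03, 1 on C03 and 1 unplaced. They stood at a median of 2.04 CPM in the tetraploid and reached 29.3 CPM at most. All 58 were called, 56 of them were under 1 CPM at meiosis, and 18 had 0 counts in every meiosis library. Those 18 passed the filter on low counts through the tetraploid mitosis libraries only. The reverse case held for 19 genes, 5 in B, 11 in C outside C03, 2 on C03 and 1 unplaced, and all 19 were called. In both cases the selection used the same values as the test, so the calls add no support. A count of 0 per library allows a level of up to 0.199 CPM in the haploid (3 counts, counting error only), so these genes were not detected at this depth rather than shown to be silent.

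Longer genes leaned toward the haploid. A length was computed for 32637 genes with at least 50 counts on average from the ratio of deposited counts to deposited FPKM, with a median of 1.27 kb. Outside C03, genes under 0.5 kb had a median log2 fold change of -0.10, with 35.6% of 3503 called lower and 20.2% higher. The median was -0.03 at 0.5 to 1 kb, 0.01 at 1 to 2 kb, 0.07 at 2 to 4 kb and 0.17 at 4 kb and over. In that last class 19.9% of 1154 were called lower and 41.3% higher, beside 28.2% and 26.2% of 12592 genes at 1 to 2 kb. Over all tested genes, without the minimum of 50 counts, 24.4% were called lower and 23.3% higher. The order of the medians was the same among genes with 1 CPM or more at meiosis, from -0.06 to 0.18. The median length was 1.05 kb for late genes and 1.28 kb for the others. On C03 the median was 0.88 for 186 genes under 0.5 kb, 0.84 at 0.5 to 1 kb and 1.01 for 46 genes at 4 kb and over.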

How the data were processed

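RNA-seq libraries of 3 haploid and 3 tetraploid anther samples at mitosis were compared, with 6 meiosis libraries in the same model. The values of the deposited count table are whole numbers, raw read counts for each gene. The deposited FPKM table was made by the authors, with a tool that no source names. The tools listed per the submitters' processing notes are featureCounts 2.0.1, TopHat2, HISAT2 2.1.0 and Bowtie2 2.2.3, without role or order. Genome build, annotation, strand and treatment of reads shared by near-identical copies, such as B and C homoeologs, were not given in the sources used, so splits between copies are uncertain.

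Counts were analysed in R 4.3.3 with edgeR 4.0.16 (TMM, default low-count filter, 4 group means over 12 libraries, 8 residual degrees of freedom, two-sided quasi-likelihood test); tested genes hold 99.8% of counts. SE came from dividing each log2 fold change by root F. Alternatives used limma 3.58.1 and DESeq2 1.42.0. The fit was tested on simulated data in which few genes changed, equally often up and down. No shift of C03 or of late genes was simulated, so that test does not cover such shifts. Replicates were compared first: pairs within groups had a mean chi-square of 2.57 to 2.90 over genes, so each library counted as 1. Chromosome and subgenome were read from gene IDs. The genes named are the B and the C gene outside C03 with the largest rise and fall in mean CPM among those called, at least 2-fold changed and not overlapping. Sets got counts and medians and no set test. The members, classes and lists were chosen with earlier results of these data known. Marker lists were not run, because no names were available.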

Additional observations from a re-analysis of the deposited data

Results flagged for a closer look

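For 3 of the 4 genes named, the difference between haploid and tetraploid was not the same at mitosis as at meiosis in the test of the interaction (edgeR, adjusted over all 51860 genes, of which 30.5% were called). BcaB01g02286 had a difference 0.989 larger at mitosis on the log2 scale (SE 0.036, adjusted p = 3.58e-21, edgeR). BcaC09g48506 had a less positive difference at mitosis (interaction -2.95, SE 0.065, adjusted p = 1.49e-27, edgeR), with a haploid level at meiosis far above the tetraploid one. BcaB04g21268 had an interaction of -2.60 (SE 0.83, adjusted p = 0.0161, edgeR), which rests on a mean of 0.135 and 0.112 CPM at meiosis.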

How the results depend on the processing

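Of the recomputed values, 297 kept within the limits set for them (the spread between libraries for medians and shares, 1.5 times for counts, side of the threshold for the 4 named genes) and 87 moved. Most of the recomputed medians moved, those of C outside C03 in every fit. The values that kept were mainly counts, which had the wider limit, and the 4 named genes. The 4 named genes kept their direction and call in all fits. They were chosen for large changes without overlap in these same libraries, so this adds no support. The larger side among all calls turned once, as given in the report. Replicate numbers do not pair the libraries: deviations of same-numbered haploid and tetraploid libraries had correlations of 0.0180, -0.0161 and -0.00898, and a fit of the 6 mitosis libraries with the number as a block called 11313 genes higher and 12162 lower. 

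For C03 the median was 0.86 with median-of-ratios size factors, 0.93 with TMM factors from genes outside C03, 0.78 without a filter on low counts, 0.59 and 0.82 with FPKM in limma-trend (pseudocounts 1 and 0.1), and 0.86 in DESeq2. Medians of B, C outside C03 and unplaced genes, in this order, were -0.046, -0.031 and -0.047 with median-of-ratios size factors, 0.016, 0.031 and 0.017 both with TMM factors from outside C03 and with C03 left out, -0.033, -0.026 and -0.030 with FPKM (pseudocount 1), -0.048, -0.038 and -0.046 with FPKM (pseudocount 0.1), -0.046, -0.031 and -0.047 in DESeq2, and -0.019, -0.0036 and -0.018 with the 6 mitosis libraries alone. With the replicate block the medians of B and C were -0.021 and -0.0034, and without a filter both were 0.0. Leaving out each mitosis library in turn gave C03 medians of 0.87 to 0.90, B medians of -0.032 to -0.0054, C medians of -0.014 to 0.0046 and unplaced medians of -0.029 to -0.0014.

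With a 2-fold minimum the counts higher and lower were 3993 and 6219 for all genes, 1245 and 2580 for B, 1461 and 3023 for C outside C03, and 286 and 502 for unplaced genes, with 1001 higher on C03. Sorting by CPM at meiosis gave B medians of -0.65 below 1 CPM (1660 lower), 0.023 at 1 to 4 (783 lower), 0.082 at 4 to 16, 0.0090 at 16 to 64 and 0.56 in the top class (29 lower), and C medians of -0.61 below 1 CPM (1974 lower), 0.044, 0.10, 0.019 and 0.36 in these classes (50 lower in the last). Sorting by FPKM at mitosis gave B medians of 0.0 below 1, 0.0060 at 1 to 4, -0.092 at 16 to 64 (800 higher), -0.19 in the fifth class and 0.084 in the top class, and C medians of 0.019, -0.041, -0.15 and 0.012 from 1 FPKM upward in these classes. Without the 100 most abundant genes the C03 share differed by 2.44 and the B share by 0.166 percentage points. The B share differed by -0.116 without BcaB01g02286 and by 0.270 without BcaC09g48506 as well, and the late-gene share by -7.00 and -7.69 with limits of 0.5 and 2 CPM and by -1.34 for genes with 0 counts at meiosis, all chosen after seeing the data. Causes of these movements were not tested. Levels under 1 CPM rest on about 16 counts per library or fewer, which limits precision there.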
